A study of Artemisia argyi with 3 samples.

Results

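Acetyl-CoA C-acetyltransferase (AACT) was represented by 10 unigenes, those labelled with this enzyme in the pathway diagram of the study, out of 88591 unigenes in the expression table. Their identifiers end in _All in the table, a suffix given here where each is first described. They were chosen by that label alone and not by their values, although earlier results of these data were known. The diagram does not name every AACT unigene that the study counted, and those left unnamed are outside this account. Leaves, roots and stems were separated from mature plants of *Artemisia argyi* Lev. et Vant., a perennial herb of the Asteraceae whose dried leaves are burned in moxibustion. The plants came from a herb garden, and the labels describe them as normal and name no treatment, age or genotype that differs between the tissues. For each tissue, material from several plants was pooled and sequenced as 1 library. Each unigene therefore had 1 value per tissue, and no difference given here has a replicate check, a standard deviation or a p-value. A pool also hides how the plants differ among themselves.

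Terpenoids are built from isopentenyl and dimethylallyl diphosphate, which plants make through the mevalonate (MVA) pathway in the cytosol and the methylerythritol phosphate (MEP) pathway in plastids. AACT opens the MVA pathway by joining acetyl-CoA units into acetoacetyl-CoA, which HMG-CoA synthase and HMG-CoA reductase (HMGR) then carry on to mevalonate. The sesquiterpenes of the volatile oil and the sterols of the membranes are usually derived from this route, and the monoterpenes from the MEP route. AACT belongs to the thiolase family, whose other members break down fatty acids. In *Arabidopsis thaliana*, AACT2 is the cytosolic enzyme that serves mevalonate formation. The expression table pairs no unigene with a gene name, so which of the 10 unigenes corresponds to which isoform could not be told from it.

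The values were FPKM, fragments per kilobase of unigene per 1000000 mapped fragments, which corrects for length and allows levels of different unigenes to be set side by side. The FPKM of all unigenes summed to between 684729 in root and 745319 in leaf, and between 61228 unigenes in leaf and 67057 in root were above 0. Among unigenes between 0.2 and 0.5 FPKM in both libraries, where values move in steps of few fragments, the ratio of FPKM was most often 1.06 for leaf over root, 1 for leaf over stem and 0.946 for root over stem, as libraries of nearly equal depth would give. Without unigene lengths, the number of fragments behind a single value remained unknown. Tissue labels could not be checked against marker genes, because the table holds identifiers alone. As bulk tissue was sequenced, fewer cells of a type and less RNA per cell cannot be told apart.

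Summed over the 10 unigenes, AACT was lower in leaf than in the other tissues. The sum was 72.5 FPKM in leaf, against 185 FPKM in root and 174 FPKM in stem. The leaf sum was thus 0.393 times the root sum and 0.416 times the stem sum, with log2 ratios of -1.34 and -1.25 after adding 1 to each sum. Root and stem differed little, at a ratio of 1.06. Leaf was also lowest and root highest after rescaling each library to a total of 1000000 (TPM), with 97.2 in leaf, against 270 in root and 238 in stem, and after median-ratio scaling, with 61.5, 244 and 150.

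**Figure D1:**
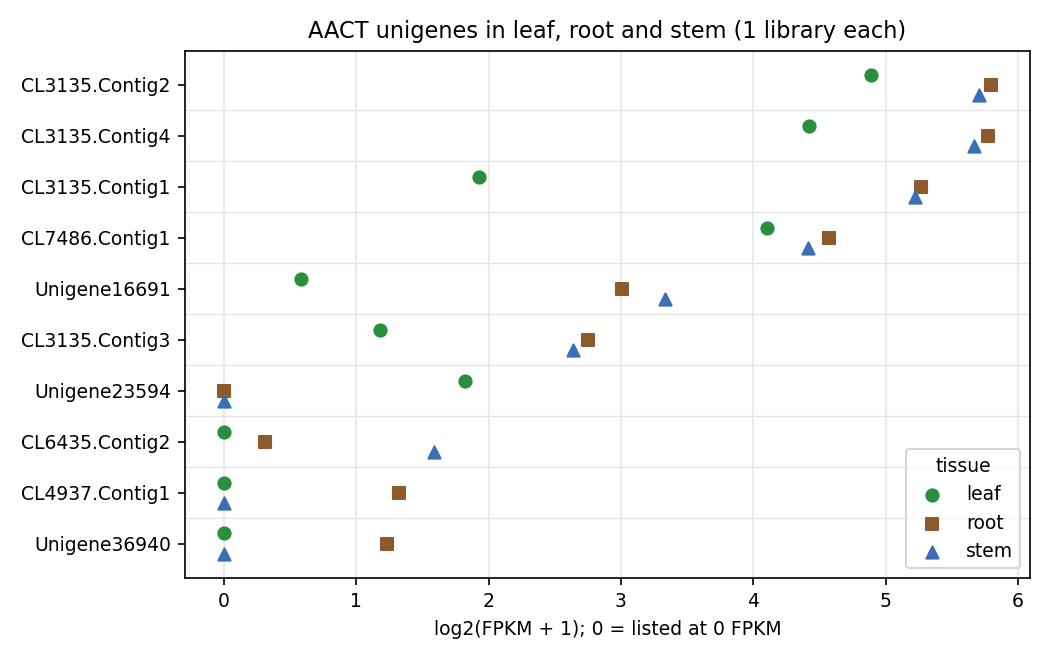
Level of each AACT unigene as log2(FPKM + 1) on the horizontal axis, with 1 point per tissue library (leaf, root, stem) and unigenes ordered by their mean FPKM. For the 6 unigenes of highest mean, the leaf point lies left of the root and stem points, and Unigene23594 shows the opposite order.

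Among the single unigenes, 7 had their highest FPKM in root, 2 in stem and 1 in leaf. Over all unigenes the highest value fell in root for 27.0%, in stem for 35.9% and in leaf for 37.1%. Some of the AACT unigenes are similar contigs that the assembly placed in 1 cluster. With these summed, 4 of 7 clusters or single unigenes were highest in root, 2 in stem and 1 in leaf. For the root-highest unigenes above 1 FPKM in all tissues, the root value was only 1.03 to 1.12 times the stem value in FPKM. A value above 1 FPKM, the threshold that the study set for expression, was found for 6 of the 10 in leaf, against 8 in root and 7 in stem, where 46.4%, 46.9% and 50.5% of all unigenes passed it. Above 10 FPKM there were 3 in leaf, against 4 in root and 4 in stem, beside 12.6%, 9.84% and 13.0% of all unigenes. The AACT unigenes therefore fell into a few abundant ones and several low ones, described here in that order.

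Most of the FPKM of the labelled AACT unigenes came from 1 cluster, CL3135, a group of similar contigs that the assembly placed together. All of its 4 contigs in the table were labelled AACT. Their FPKM summed to 53.2 in leaf, against 152 in root and 143 in stem. This was 73.4%, 82.2% and 82.0% of the sum over the labelled AACT unigenes. RSEM divides fragments that align to several contigs, so the cluster sum is more certain than the value of any of its contigs.

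CL3135.Contig2_All, the AACT unigene of highest mean, had 28.7 FPKM in leaf, against 54.7 in root and 51.2 in stem. It ranked 4507th of all unigenes in leaf, 2104th in root and 2618th in stem. CL3135.Contig4_All had 20.5 FPKM in leaf, against 53.7 in root and 49.9 in stem. Leaf was lower for both contigs, by a log2 ratio to root of -0.91 for CL3135.Contig2 and -1.35 for CL3135.Contig4. CL3135.Contig2 thus missed the 2-fold threshold of the study against root, which it passed with TPM, at -1.03, and with median-ratio scaling, at -1.53.

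CL3135.Contig1_All differed more from leaf to the other tissues than any other contig of its cluster. It had 2.80 FPKM in leaf, against 37.6 in root and 36.4 in stem. The leaf value was 0.0745 times the root value and 0.0770 times the stem value, with log2 ratios of -3.34 and -3.30 on the scale of FPKM + 1. In leaf 59.7% of the unigenes above 0 were lower than it, against 95.6% in root and 94.3% in stem. CL3135.Contig3_All was the lowest of the cluster, with 1.27 FPKM in leaf, against 5.75 in root and 5.21 in stem and log2 ratios of -1.57 and -1.45.

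The composition of CL3135 therefore differed in leaf. CL3135.Contig1 made up 5.26% of the cluster's FPKM in leaf, against 24.8% in root and 25.5% in stem. CL3135.Contig2 took 53.9% in leaf, against 36.0% in root and 35.9% in stem, while CL3135.Contig4 stayed between 35.0% in stem and 38.5% in leaf. Between leaf and root, 20.9 percentage points of the cluster's FPKM lay on different contigs, and between leaf and stem 21.5 points. Between root and stem it was 0.708 points. Over the 3285 clusters that had at least 2 contigs and at least 10 FPKM in every tissue, a comparison chosen after the CL3135 values were seen, the median was 8.0 points for leaf and root, 9.75 for leaf and stem and 7.43 for root and stem. These clusters were not matched to CL3135 in number of contigs or in FPKM. CL3135 moved more than 83.5% and 78.8% of them in the pair of leaf comparisons. For root and stem only 6.45% of the clusters moved less. Whether the contigs are isoforms, alleles or gene copies could not be read from these values, and the way RSEM divided their shared fragments was not tested.

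**Figure D2:**
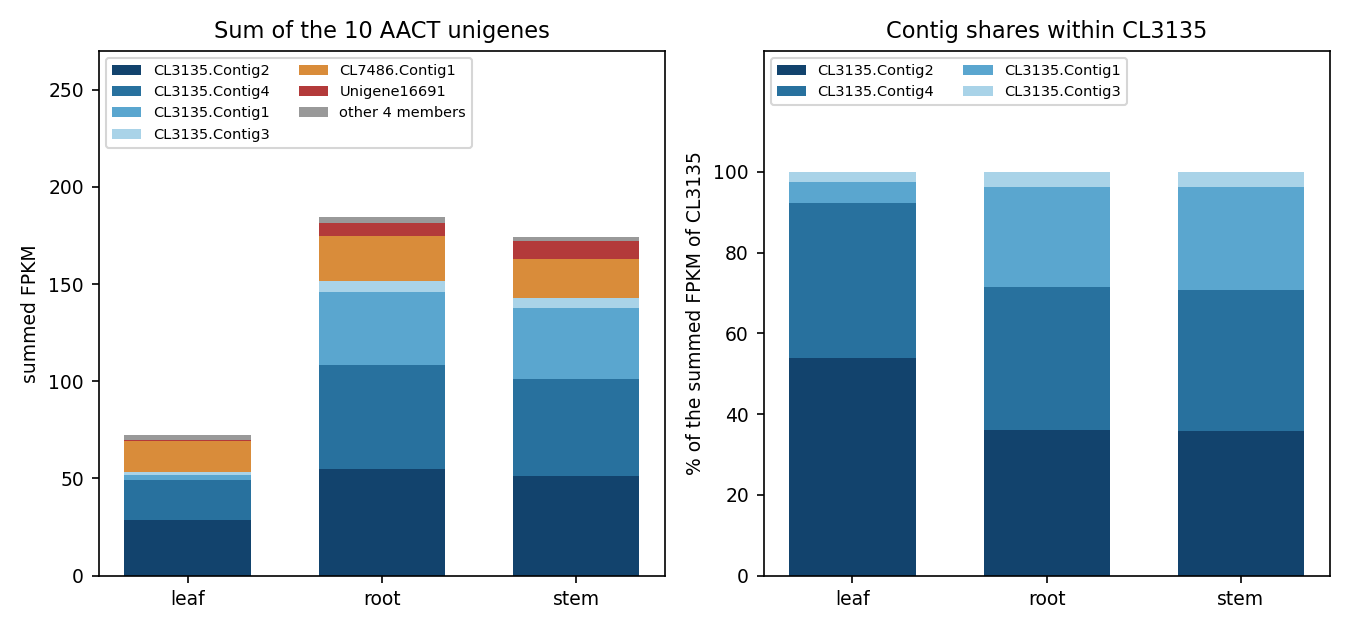
Left, FPKM of the 10 AACT unigenes stacked by unigene in leaf, root and stem, reaching 72.5, 185 and 174. Right, percent of the summed FPKM of CL3135 held by each of its 4 contigs, where CL3135.Contig1 holds 5.26% in leaf, against 24.8% in root and 25.5% in stem.

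CL7486.Contig1_All was the next most abundant and the most even of the 5 AACT unigenes above 1 FPKM in all tissues. It had 16.2 FPKM in leaf, against 22.8 in root and 20.3 in stem, and these values were above 87.7%, 93.1% and 90.2% of the unigenes detected in each library. Its log2 ratio was -0.47 for leaf over root and -0.31 for leaf over stem, both within 2-fold, although median-ratio scaling took leaf over root past it, to -1.08. Because it differed less, its share of the AACT sum was 22.4% in leaf, against 12.4% in root and 11.7% in stem. The table holds a further 3 contigs of CL7486 that the diagram does not label. One of them, CL7486.Contig3, named here after its values were seen, ran the other way, with 4.12 FPKM in leaf, against 0.90 in root and 0.78 in stem. The 4 contigs together came to 20.3 FPKM in leaf, against 23.7 in root and 22.2 in stem, so that in FPKM the whole cluster was within 1.2-fold in every pair of tissues. This evenness depended on the scale, since the sums were 27.3, 34.6 and 30.3 with TPM and 17.3, 31.4 and 19.1 with median-ratio scaling.

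Unigene16691_All was a singleton, a unigene with no cluster partner. It had 0.50 FPKM in leaf, against 7.04 in root and 9.08 in stem, and its leaf value was 0.0710 times the root value and 0.0551 times the stem value. Its log2 ratios were -2.42 and -2.75 on the scale of FPKM + 1. It was highest in stem among the 3 tissues, but with median-ratio scaling it was highest in root, at 0.425 in leaf, against 9.32 in root and 7.82 in stem.

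Unigene23594_All alone was highest in leaf. It had 2.54 FPKM in leaf and was listed at 0 in root and in stem, which gave log2 ratios of 1.82 on the scale of FPKM + 1. Its leaf value was 3.50% of the AACT sum there. Of all unigenes 7.43% were above 0 in leaf alone.

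The remaining 3 AACT unigenes were listed at 0 in leaf, as were 30.9% of all unigenes, and were low elsewhere. CL4937.Contig1_All had 1.5 FPKM in root, and Unigene36940_All had 1.35, and both were listed at 0 in leaf and stem. The other contigs of CL4937, which the diagram does not label, showed the same pattern, with 2.37 FPKM for CL4937.Contig2 and 0.84 for CL4937.Contig3 in root and 0 elsewhere. The cluster sum was therefore 0 in leaf, against 4.71 FPKM in root and 0 in stem. Clusters of at least 3 contigs, as many as CL4937 has, were counted after its values were seen. Of 5427 such clusters, 190, or 3.50%, had FPKM in root alone. Single unigenes above 0 in root alone made up 14.5% of the table, with a median of 1.32 FPKM, close to the pair of AACT unigenes. CL6435.Contig2_All had 0 FPKM in leaf, against 0.24 in root and 2.01 in stem, and 7.21% of all unigenes were likewise found in root and stem alone. The other contig of CL6435 was listed at 0 in leaf and root and had 0.83 FPKM in stem. How many fragments stood behind these low values is unknown.

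For leaf over root, 6 of the 10 unigenes were at least 2-fold lower on the scale of FPKM + 1 and 1 was at least 2-fold higher. Over all 88591 unigenes, 18.0% were at least 2-fold lower and 20.2% at least 2-fold higher. The 6 were CL3135.Contig1, CL3135.Contig3, CL3135.Contig4, CL4937.Contig1, Unigene16691 and Unigene36940. The median log2 ratio was -1.28 over the AACT unigenes and 0.02 over all unigenes. Contigs of 1 cluster share sequence and are not separate observations, and by cluster or singleton the lower side held CL3135, CL4937, Unigene16691 and Unigene36940 of 7. Restricted to unigenes above 1 FPKM in leaf and root, and with no pseudocount added, 3 of 5 AACT unigenes were at least 2-fold lower, where 12.2% of 26104 unigenes were, and 0 were at least 2-fold higher, against 32.9%. These 3 were all contigs of CL3135.

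For leaf over stem, 5 of the 10 were at least 2-fold lower and 1 was at least 2-fold higher, where 16.5% and 12.3% of all unigenes were. The 5 were CL3135.Contig1, CL3135.Contig3, CL3135.Contig4, CL6435.Contig2 and Unigene16691. By cluster or singleton, the lower side held CL3135, CL6435 and Unigene16691 of 7. Both comparisons share the leaf library, and 4 unigenes were at least 2-fold lower in leaf than in both other tissues, as were 4.77% of all unigenes. The 4 were Unigene16691 and 3 contigs of CL3135. The median log2 ratio was -1.03 over the AACT unigenes and 0.00 over all. Above 1 FPKM in both tissues, 3 of 5 were at least 2-fold lower, against 16.1% of 30969 unigenes, and 0 were higher, against 19.1%. Here too the 3 were all contigs of CL3135.

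**Figure D3:**
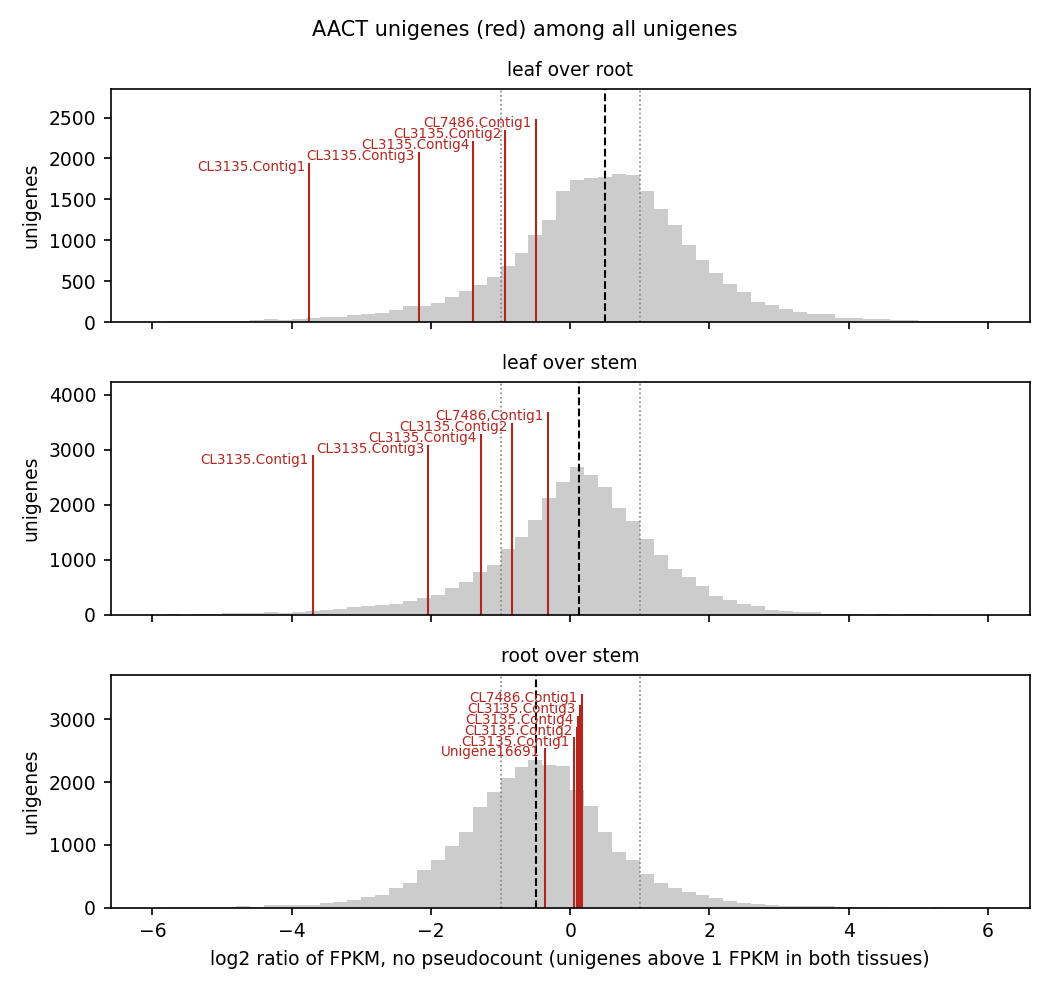
Number of unigenes by log2 ratio of FPKM, for unigenes above 1 FPKM in both tissues of each pair (grey bars, ratios beyond the axis not drawn), with the AACT unigenes as red lines, the median of the unigenes as a dashed line and 2-fold as dotted lines. The red lines lie left of the median for leaf over root and leaf over stem, and all 6 lie right of the median for root over stem, 5 of them close to 0.

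For root over stem, 2 of the 10 were at least 2-fold higher and 1 was at least 2-fold lower, against 14.2% and 19.8% of all unigenes. The 2 were CL4937.Contig1 and Unigene36940, both found in root alone, and the 1 was CL6435.Contig2. Above 1 FPKM in both tissues and with no pseudocount, 0 of 6 AACT unigenes were at least 2-fold higher, against 8.34% of 28565 unigenes, and 0 at least 2-fold lower, against 30.3%. Of these 6 unigenes, 5 differed by at most 1.2-fold, while 18.9% of the 28565 did. The 6 were CL7486.Contig1, Unigene16691 and the 4 contigs of CL3135, which share sequence and are not separate observations. The ratio of root to stem lay between 1.03 and 1.10 for the 4 contigs of CL3135, was 1.12 for CL7486.Contig1 and was 0.775 for Unigene16691. The closeness depended on the scale. The median log2 ratio of root to stem over these unigenes was -0.49 in FPKM, and median-ratio scaling, which shifts it by 0.62, placed the CL3135 contigs between 1.59 and 1.70 times higher in root and left 1 of 6 within 1.2-fold. With TPM, 4 of the 6 were. For leaf over root the same scaling shifts log2 ratios by -0.64, for leaf over stem by -0.02, so that leaf stayed lowest for each contig of CL3135 and for CL7486.Contig1.

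The other enzymes of the terpenoid backbone were taken from the 7 unigenes that the cloning methods of the study name, 3 of the MVA and 4 of the MEP pathway. The study counts further unigenes for each of these enzymes except diphosphomevalonate decarboxylase (MVD), and those are not included here. For the others, a ratio to the AACT sum sets a part of an enzyme's unigenes beside a sum. The AACT sum itself leaves out the AACT unigenes that the diagram does not name. All values are of RNA, so no ratio to that sum, the one of ArMVD included, is a ratio of enzyme levels. HMGR, which reduces HMG-CoA to mevalonate and is commonly regarded as the regulated step of the MVA pathway, was represented by ArHMGR1 (CL11002.Contig1) and ArHMGR2 (CL11002.Contig2). ArHMGR1 had 10.3 FPKM in leaf, against 59.5 in root and 144 in stem, and ArHMGR2 had 8.08 in leaf, against 175 in root and 10.7 in stem. Like the AACT sum, both had their lowest value in leaf. Unlike it, they differed widely between root and stem as single contigs, by log2 ratios of -1.26 for ArHMGR1 and 3.91 for ArHMGR2. They belong to 1 cluster, and the way RSEM divided any shared fragments was not tested. Summed, their log2 ratio of root to stem was 0.59. Together, these HMGR contigs came to 18.4 FPKM in leaf, against 234 in root and 155 in stem, which was 25.4%, 127% and 89.0% of the AACT sum.

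ArMVD (Unigene7594), the diphosphomevalonate decarboxylase that closes the MVA pathway, differed little, with 16.2 FPKM in leaf, against 12 in root and 11.8 in stem, an order that median-ratio scaling turned to 13.7, 15.9 and 10.2 with root highest. The AACT sum was 4.48 times the ArMVD level in leaf, 15.4 times in root and 14.8 times in stem. On the MEP side, ArDXR (CL1159.Contig3), which forms methylerythritol phosphate, had 11.02 FPKM in leaf, against 4.83 in root and 5.75 in stem. ArHDS (Unigene5791), the iron-sulfur enzyme near the end of that route, had 142 in leaf, against 32.4 in root and 70.6 in stem. Both were highest in leaf, where the AACT sum was lowest, and ArHDS was the only one of the 7 above the AACT sum in leaf, at 1.96 times it. ArDXS (Unigene11038), the entry enzyme of the MEP pathway, had 4.16 FPKM in leaf, against 2.01 in root and 71.8 in stem, and ArHDR (CL1787.Contig4), the last enzyme, had 23.4, 12.2 and 40.3. In leaf against root, 2 of the 7 unigenes were at least 2-fold higher and 2 at least 2-fold lower, on FPKM + 1. Over all unigenes 20.2% were higher and 18.0% lower. In leaf against stem, 0 of the 7 were higher and 2 lower, beside 12.3% and 16.5% of all unigenes. Without the added 1, 3 were higher in leaf than in root, ArDXS included, and 1, ArHDS, was higher in leaf than in stem. Among all unigenes above 1 FPKM in both tissues of a pair, 32.9% and 19.1% were higher in leaf.

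**Figure D4:**
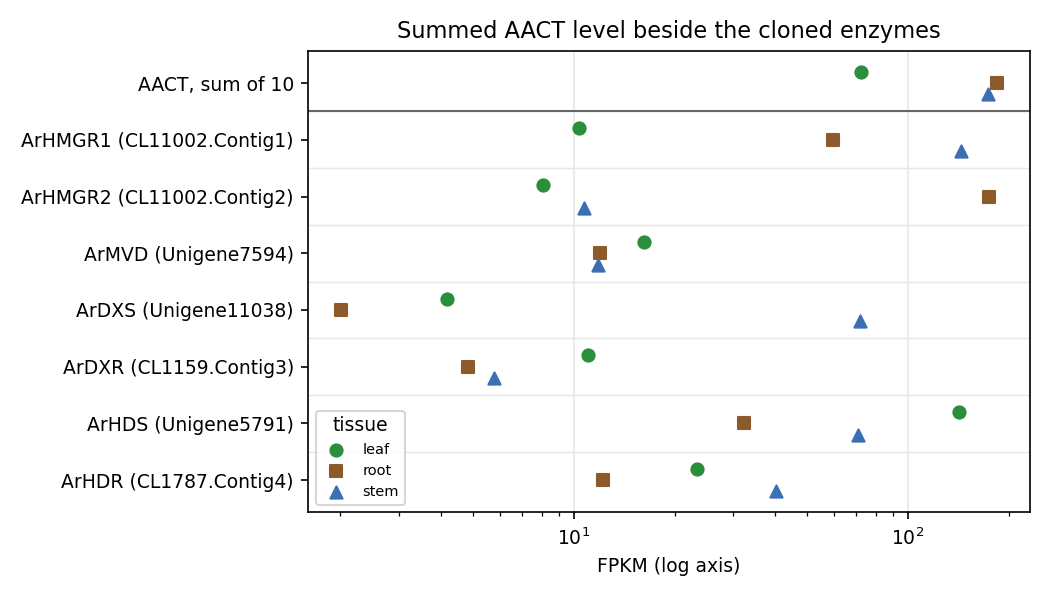
FPKM on a log axis of the summed AACT unigenes and of the 7 cloned terpenoid unigenes in leaf, root and stem, 1 library each. The AACT sum and both HMGR contigs have their lowest value in leaf, while ArDXR and ArHDS have their highest there, as does ArMVD in FPKM but not after median-ratio scaling.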

How the data were processed

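The authors filtered the reads (Trimmomatic is named in the submitters' processing notes), assembled them de novo with Trinity, grouped contigs with TGICL, mapped each library to the unigenes with Bowtie2 and estimated expression with RSEM. The values the authors deposited are FPKM with 2 decimals, without counts or unigene lengths, and a library in which a few unigenes are very abundant has lower values for the rest. From them were computed sums per cluster, shares, log2 ratios after adding 1, and 2-fold calls. With 1 library per tissue no test was possible, and the PoissonDis test of the study, which needs counts, was not repeated. TPM, median-ratio scaling, other pseudocounts, thresholds and sums were tried as alternatives. Named unigenes were the 10 labelled AACT, the 7 cloned ones, contigs that exceed the AACT contigs of their cluster, and the 2 unigenes nearest to the AACT sum. CL7486.Contig3 and CL4937.Contig3 fall outside this rule and were named after their values were seen. The members and lists were chosen with earlier results of these data known. The code for the fold calls was tried on simulated data, for abundant unigenes and after median-ratio scaling. That trial covers neither low values nor calls on unscaled FPKM. Python 3.11.15, numpy 2.4.6, pandas 2.3.3 and matplotlib 3.10.9 were used. RNA was extracted with a kit that the paper and the sample labels name differently.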

Additional observations from a re-analysis of the deposited data

How the results depend on the processing

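The summed AACT level stayed lower in leaf than in root and stem under every alternative tried, and the 2-fold call was lost under 1. Without the contigs of CL3135, an alternative chosen after seeing the data, the log2 ratio was -0.75 for leaf over root and -0.68 for leaf over stem, since CL3135 holds most of the sum. Median-ratio scaling gave -1.97 for leaf over root and 0.70 for root over stem, where FPKM gave -1.34 and 0.08, and it left 1 unigene highest in stem instead of 2. Taking only unigenes above 1 FPKM in both tissues, which leaves 5 or 6 to count, gave 3 lower and 0 higher in leaf than in root, 3 lower and 0 higher in leaf than in stem, and 0 higher and 0 lower in root than in stem. In both leaf comparisons the 3 lower unigenes were contigs of CL3135. Pseudocounts of 0.1 and 0.01, TPM and thresholds of 0, 0.5 and 2 FPKM kept the other counts within 1.5-fold. Of 30 log2 ratios of single unigenes, a pseudocount of 0.1 moved 11, median-ratio scaling 7 and TPM 1, by over 1.5-fold or across 2-fold, and none changed direction while called. Joining contigs by cluster moved only the shares of CL3135, the only cluster with more than 1 AACT unigene, so no other share could move. No paired analysis was possible because each tissue had 1 library. The depth behind single values is unknown, which limits most the unigenes near 1 FPKM.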

Other observations

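Outside the AACT unigenes, the unigenes closest in level to the AACT sum were Unigene9436 and Unigene11758, by Euclidean distance over log2(FPKM + 1) in the 3 tissues. Unigene9436 had 72.3 FPKM in leaf, against 159 in root and 167 in stem, at a distance of 0.22. Unigene11758 had 60.4, 191 and 171 FPKM, at a distance of 0.26. Within a distance of 0.5 there were 16 of 88581 unigenes. Likeness over 3 values is a description of level and order alone.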
